A study of Homo sapiens with 72 samples.

Results

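G3BP1/2 double-knockout U2OS cells, an osteosarcoma cell line, that had been given back wild-type G3BP1 were compared with knockout cells given G3BP1 without its NTF2 domain, both after sodium arsenite. Each group had 2 libraries. The cells of both groups carried the same G3BP1/2 knockout, were transfected transiently with Lipofectamine, had 24 h from transfection and were exposed to 200 uM arsenite for 2 h. For reference, the same rescues without arsenite, untransfected knockout cells and untransfected knockout cells with arsenite are given, each with 2 libraries. No table that sets the 2 arsenite-treated rescues directly against each other was used here. The authors compared each with untreated knockout cells, and the difference of the 2 log2 fold changes of a gene is the measure here. Of 61541 genes, 16553 had a base mean (the authors' mean of normalised reads over the libraries of a table) of at least 10 in both tables and entered the comparison. The series holds 72 libraries, of which the others serve different experiments.

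G3BP1 is an RNA-binding protein that nucleates stress granules, the cytoplasmic condensates of untranslated mRNA and protein that form when translation initiation stops. Its amino-terminal NTF2-like domain forms dimers and binds partners such as CAPRIN1, USP10 and UBAP2L, and its carboxy-terminal part binds RNA. Arsenite reacts with thiol groups of proteins, causes phosphorylation of eIF2alpha and stress granules, and raises heat shock, NRF2, metallothionein and immediate-early genes in most cells. The comparison asks which transcripts differ between stressed cells with full-length G3BP1 and stressed cells whose G3BP1 lacks that domain.

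The limits of these groups as models are in the labels. Transfection was transient, so a bulk library mixes transfected and untransfected cells, and a smaller share of transfected cells and less transcript per cell cannot be told apart. No mock-transfected group was used here. Whether the 2 libraries of a group came from separate transfections is not stated. The p-values rest on the spread between libraries, pooled over groups and genes, and cannot be taken to cover the spread between transfections. Reads in genes came to 27755473 and 19074162 in the arsenite-treated wild-type rescue, 16164909 and 16062841 in the arsenite-treated NTF2-deletion rescue and 10793184 to 15574177 in the other 8 libraries. Markers of the line and of other cell types were checked in the 4 arsenite-treated rescue libraries. Of 11 osteoblast lineage markers 7 reached 10 normalised reads in at least 1 of them, led by VIM, SPARC and COL1A1, while IBSP was at 0 and SP7, TWIST1 and BGLAP stood below 10. Of 9 epithelial markers 5 reached 10, with KRT5 at 0, and their sums of 8597 and 8652 with wild type stood below the 9111 and 9261 with the deletion form. Of 7 blood cell markers only CD14 reached 10, and the list summed to 16.3 to 25.4 reads. Of 5 endothelial markers only VWF reached 10. Of 5 kidney line markers 4 did, and their sums of 309 to 329 with wild type and 306 to 307 with the deletion form lay side by side.

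The transfected gene was read first. G3BP1 (ENSG00000145907) had 3815 and 3884 normalised reads in untreated knockout libraries and 3168 and 3277 with arsenite, a low level beside the rescues. Arsenite-treated wild-type rescue had 784731 and 803026 normalised reads, and arsenite-treated NTF2-deletion rescue 955601 and 977487. Both deletion libraries stood above both wild-type libraries, and G3BP1 took 5.04 and 5.17% of gene reads in the wild-type libraries against 6.08 and 6.22% with the deletion form. The log2 difference, wild type minus deletion, was -0.26 (SE 0.057, adjusted p = 0.00819), and it was -0.44 on reads without arsenite (adjusted p = 1.45e-07, limma). The values are per gene and not per length, so the deleted part is not accounted for. Every difference that follows was measured beside this difference in transgene level, and the domain and the level cannot be told apart. G3BP1P1 (ENSG00000235651), a processed pseudogene of G3BP1, had 189 and 178 normalised reads with wild type and 1329 and 1465 with the deletion form, after 19.6 and 16 in knockout cells. Its log2 difference of -2.87 (SE 0.42, adjusted p = 1.64e-07) was -2.75 on reads without arsenite. Reads of a pseudogene and of its parent gene can be assigned to either copy, so this value is uncertain as a measure of the pseudogene. G3BP2, the paralog, had 2581 and 2648 normalised reads with wild type and 2643 and 2591 with the deletion form, values that overlapped, with a log2 difference of 0.024 (SE 0.10, adjusted p = 1).

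How many genes separated the arsenite-treated rescues depended on the test. The difference of the authors' fold changes, divided by the root of their summed squared standard errors, called 13 of 16553 genes at an adjusted p under 0.05, which is 0.0785% of those tested. Of these 8 were higher with wild type (0.0483%) and 5 lower (0.0302%), and 199 had an unadjusted p under 0.05. Higher were HMOX1, DUSP2, HSPA1A, HSPA1B, DNAJB1, NEAT1, JUN and ANKRD1. Lower were G3BP1, G3BP1P1, CNTNAP2, SMANTIS (ENSG00000288869) and RHPN2P1 (ENSG00000258628). Both tables carry the error of the same knockout libraries, which the summed error counts in full, so this test is a cautious one. A second measure avoids that. The authors' base means fix the whole reads of each gene in each of the 12 libraries, and limma on log2 of the normalised reads plus 1, over all 6 groups, called 178 genes (1.08%), with 2159 at an unadjusted p under 0.05. Of these 134 were higher with wild type (0.81%) and 44 lower (0.266%), with a median absolute log2 difference of 0.31. Such calls are named "called on reads" in what follows. Limma fitted on the 4 arsenite-treated rescue libraries alone called 1286 genes (7.77%), 730 higher (4.41%) and 556 lower (3.36%), and leaving out any 1 of them from the fit of 6 groups left 31 to 47 calls. The lowest, 31, was without the deeper wild-type library.

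Of the 13 genes 10 were also called on reads, in the same direction, and 3 were not. CNTNAP2, a neurexin-family adhesion gene, had 197 and 171 reads in the untreated knockout libraries. It had 8 and 3 reads in the arsenite-treated wild-type rescue and 0 and 10 in the arsenite-treated NTF2-deletion rescue, so the groups overlapped. The authors' deposited tables give log2 fold changes of -5.14 (SE 0.40) and -1.12 (SE 0.60) over knockout for these groups, where the ratios of group means of the reads give -5.87 and -5.40. SMANTIS, a long noncoding RNA, had 146 and 105 reads in knockout cells, 3 and 0 with wild type and 6 and 0 with the deletion form. RHPN2P1, a pseudogene, had 108 and 110, then 1 and 3 against 0 and 7. On reads the log2 differences of the 3 genes were 0.41, -0.67 and -0.27 with adjusted p of 0.852, 0.718 and 0.931 (limma). Their calls were therefore lost on the reads, and they are not counted below as differences between the rescues.

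**Figure D1:**
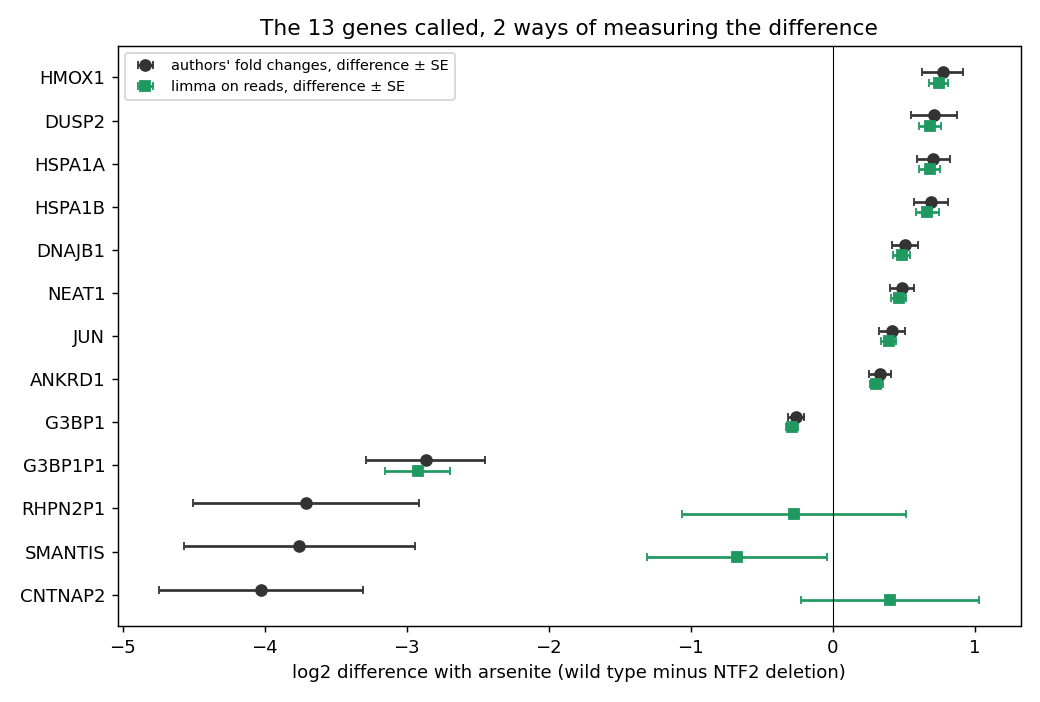
Log2 difference between the arsenite-treated rescues (x axis, wild type minus NTF2 deletion, with its standard error) for the 13 genes called, from the authors' fold changes (circles) and from limma on reads (squares). For 10 genes the 2 values lie side by side, while CNTNAP2, SMANTIS and RHPN2P1 stand between -4.03 and -3.71 by the first measure and between -0.67 and 0.41 by the second.

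Some heat shock chaperones, the proteins that refold damaged proteins, were higher in stressed cells with wild-type G3BP1, led by the HSP70 genes HSPA1A and HSPA1B and by DNAJB1. Of 35 heat shock chaperone genes tested, 3 were called and 6 were called on reads, all higher with wild type (17.1%, against 0.81% of all genes). None was called lower by these tests. The fit of the 4 treated rescue libraries alone called 12 higher (34.3%, against 4.41% of all genes) and 1 lower (3.36% of all genes were). Of the 35, 19 had both wild-type libraries above both deletion libraries (54.3%, against 25.5% of all genes) and 7 had both below (20%, against 24.3%). HSPA1A (ENSG00000204389) encodes a stress-inducible HSP70. It had 8266 and 9058 normalised reads with wild type and 5166 and 5619 with the deletion form, so the groups did not overlap. The mean was 1.61 times as high with wild type (log2 difference 0.71, SE 0.12, adjusted p = 1.45e-05). Without arsenite it had 817 and 843 reads with wild type and 815 and 838 with the deletion form, values that overlapped. Knockout cells went from 488 and 581 to 13351 and 10835, above both rescues. HSPA1B (ENSG00000204388), whose protein is the same, had 7786 and 8151 reads with wild type and 5027 and 5004 with the deletion form (log2 difference 0.69, SE 0.12, adjusted p = 2.37e-05). The 2 genes are near-identical copies that share reads, so their split is uncertain. DNAJB1 (ENSG00000132002), the HSP40 partner that loads clients onto HSP70, had 10128 and 10297 against 7313 and 7273 reads (log2 difference 0.51, SE 0.09, adjusted p = 5.34e-05).

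Another 3 chaperones were called on reads alone. HSP90AA1, the inducible cytosolic HSP90, had 19452 and 20008 against 16841 and 16979 reads and was 1.17 times as high. DNAJA4, an HSP40, had 975 and 944 against 701 and 668 and was 1.4 times as high. HSPH1, the HSP110 exchange factor of HSP70, had 8271 and 8286 against 7289.8 and 7385 and was 1.13 times as high. Their adjusted p by limma were 0.00373, 0.00373 and 0.0477, and without arsenite their log2 differences were 0.014, 0.052 and 0.02, with adjusted p from 0.854 to 0.919. HSPA6, an HSP70 gene that is almost silent without stress, was picked out after its values were seen. It had 809 and 737 reads with wild type and 329 and 329 with the deletion form, but its log2 difference of 1.23 (SE 0.41) did not pass (adjusted p = 0.147, limma). Without arsenite it had 28.3 and 19 reads with wild type and 14.2 and 20.3 with the deletion form.

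Promoters of some of these genes are shown as background. Heat shock factor 1 is known to switch on many chaperone genes through heat shock elements made of inverted repeats of GAA. Its activity was not measured here, and its part in the differences was not tested. The letters GAANNTTC and TTCNNGAA, each its own reverse complement so that both strands are covered, were searched in the 250 bases before each RefSeq gene start (GRCh38.p14). The lines give those bases 5′ to 3′ on the gene's strand, with matches in capitals. HSPA1A lies at chr6:31815293-31815542 on the plus strand, HSPA1B at chr6:31827488-31827737 plus, HSPA6 at chr1:161524290-161524539 plus and DNAJB1 at chr19:14518398-14518647 minus. For DNAJB1 the start with matches, 1 of 3 in the table, is shown.
HSPA1A: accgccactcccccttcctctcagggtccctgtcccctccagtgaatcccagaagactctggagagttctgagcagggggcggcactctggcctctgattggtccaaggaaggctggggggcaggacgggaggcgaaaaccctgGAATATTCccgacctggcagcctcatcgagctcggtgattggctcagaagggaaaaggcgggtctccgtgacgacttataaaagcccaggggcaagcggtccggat
HSPA1B: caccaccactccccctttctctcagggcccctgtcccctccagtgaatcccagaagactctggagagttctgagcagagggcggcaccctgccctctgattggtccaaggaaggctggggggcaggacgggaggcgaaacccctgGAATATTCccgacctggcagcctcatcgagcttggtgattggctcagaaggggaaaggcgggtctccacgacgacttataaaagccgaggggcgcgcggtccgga
DNAJB1: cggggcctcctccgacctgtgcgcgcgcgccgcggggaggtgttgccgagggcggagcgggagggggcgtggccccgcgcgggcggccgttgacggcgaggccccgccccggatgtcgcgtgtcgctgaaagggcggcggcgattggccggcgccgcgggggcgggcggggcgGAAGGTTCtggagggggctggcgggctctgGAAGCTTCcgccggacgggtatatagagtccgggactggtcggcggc
HSPA6: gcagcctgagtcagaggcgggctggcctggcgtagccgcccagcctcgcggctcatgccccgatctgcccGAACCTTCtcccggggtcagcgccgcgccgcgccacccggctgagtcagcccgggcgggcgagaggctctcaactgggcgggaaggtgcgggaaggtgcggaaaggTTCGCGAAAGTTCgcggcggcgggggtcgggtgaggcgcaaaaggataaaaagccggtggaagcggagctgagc
HSPA1A and HSPA1B hold 1 match each, the same letters GAATATTC at 106 to 99 and 105 to 98 bases before the start. DNAJB1 holds 2, and HSPA6 holds 3, of which 2 overlap. The letters occurred before at least 1 start of 5 of the 6 chaperones called on reads and of 18 of the 31 tested chaperones with a promoter in the table (58.1%). They occurred in 1370 of 11405 tested genes (12%), in 5 of 41 immediate-early genes (12.2%) and in 21 of the 109 genes called higher on reads that matched (19.3%). HSPH1 was the called chaperone without a match, and HSPA6 is shown although its difference did not pass. A match is a run of letters and not a measured site.

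**Figure D2:**
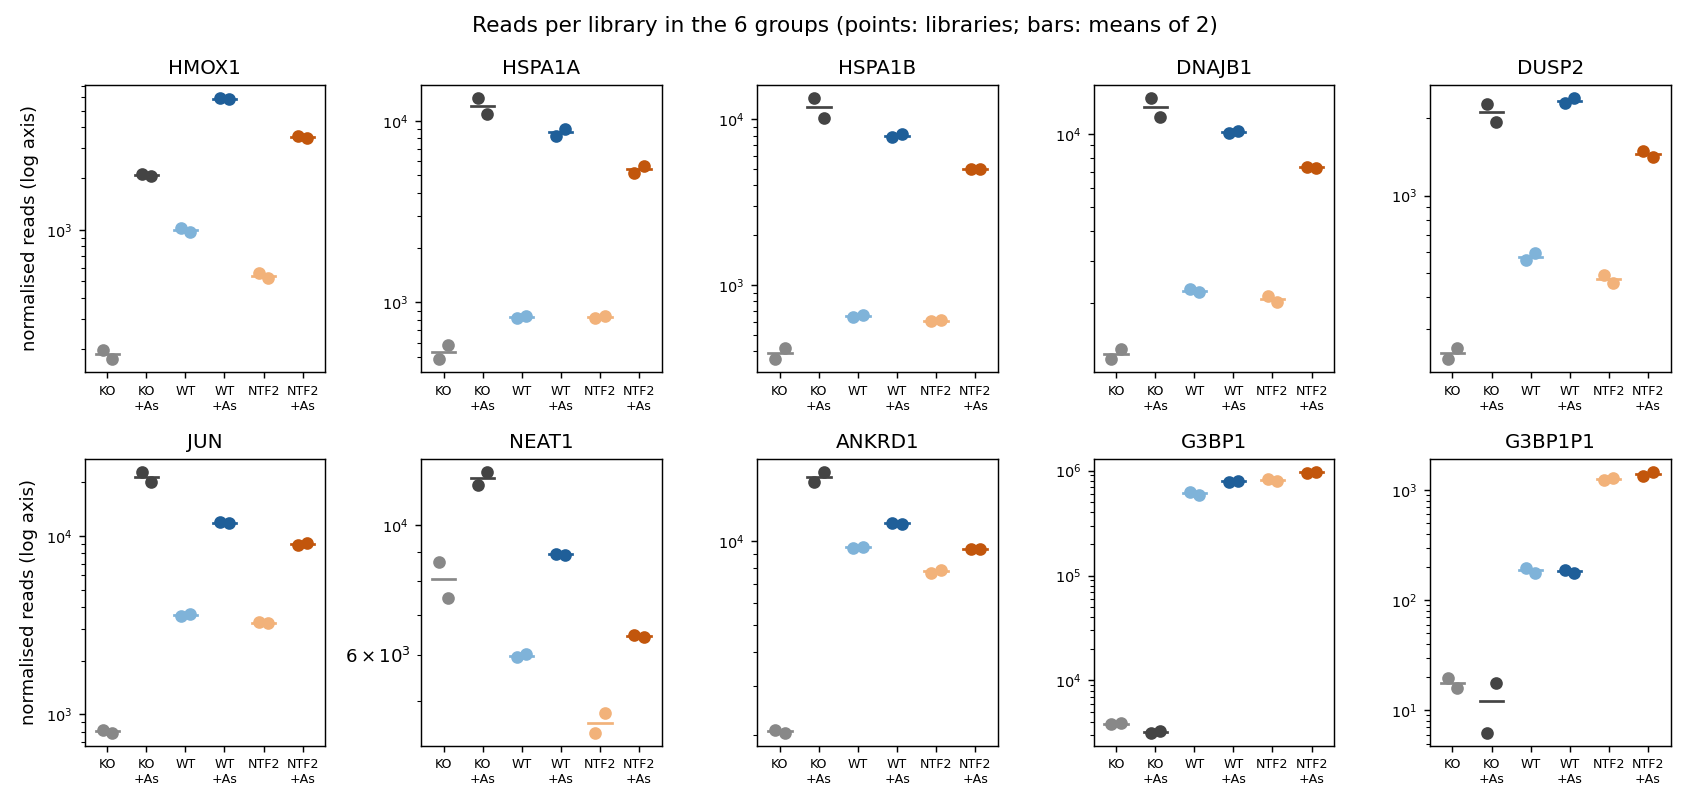
Normalised reads (y axis, log scale) of the 10 genes called by both measures in the 12 libraries, 2 points per group and a bar at their mean, for knockout (KO), wild-type rescue (WT) and NTF2-deletion rescue (NTF2) without and with arsenite (+As). With arsenite the 2 wild-type points lie above the 2 NTF2-deletion points for the 8 genes from HMOX1 to ANKRD1 and below them for G3BP1 and G3BP1P1.

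HMOX1 (ENSG00000100292), haem oxygenase 1, the antioxidant enzyme that NRF2 induces, had the largest difference among genes called higher by the authors' fold changes. It had 5926 and 5815 normalised reads with wild type and 3564 and 3434 with the deletion form, a ratio of 1.68 (log2 difference 0.77, SE 0.15, adjusted p = 0.000388). The difference was already there without arsenite, at 1019 and 976 against 557 and 522 reads (log2 0.89, adjusted p = 4.02e-10, limma). Arsenite multiplied the mean by 5.88 with wild type and by 6.49 with the deletion form, and the difference of these responses did not pass (-0.14 on log2, adjusted p = 0.862, limma). Knockout cells had 198 and 175 reads without and 2137 and 2078 with arsenite, below both treated rescues. Of 30 NRF2 target genes, HMOX1 was the one called (3.33%, against 0.0483% of all genes called higher). On reads SQSTM1, the autophagy receptor p62, joined it (6.67%, against 0.81%). SQSTM1 had 10012 and 10163 against 8317 and 8826 reads (adjusted p = 0.00945, limma). The list's median log2 difference of 0.0014 was below the 0.023 of all genes. GCLC, which makes glutathione's precursor, and NFE2L2, which encodes NRF2, did not pass (log2 0.14 and 0.18 on reads).

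Immediate-early genes, which growth factors and stress switch on within minutes without new protein, held the largest share of calls on reads among the lists of at least 10 tested genes. Of 54 tested, JUN and DUSP2 were called, and 20 were called on reads, all higher with wild type (37%, against 0.81% of all genes). The fit of the 4 treated rescue libraries alone called 32 higher (59.3%, against 4.41% of all genes) and 2 lower (3.36% of all genes were). Of the 54, 41 had both wild-type libraries above both deletion libraries (75.9%, against 25.5% of all genes), and the median log2 difference was 0.26. DUSP2 (ENSG00000158050), a nuclear phosphatase of MAP kinases, had 2292 and 2405 against 1498 and 1420.0 normalised reads (log2 difference 0.72, SE 0.16, adjusted p = 0.0183). JUN (ENSG00000177606), an AP-1 subunit, had 11893 and 11822 against 8908 and 9133 (log2 difference 0.42, SE 0.091, adjusted p = 0.00615). For both genes the groups did not overlap. Knockout cells with arsenite had 22889 and 19981 JUN reads, more than either rescue, and 2282 and 1943 DUSP2 reads, below both wild-type libraries and above both deletion libraries.

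The other 18 called on reads, listed because they passed, were ARC, ATF3, DUSP1, DUSP8, EGR1, FOS, FOSB, GADD45A, IER2, IER5, JUNB, KLF10, KLF6, MCL1, MYC, PPP1R15A, ZFP36L1 and ZFP36L2. Over the 20 genes the log2 differences on reads ran from 0.22 to 0.69. The AP-1 partner FOS had 912 and 894 against 635 and 614 reads, a ratio of 1.45. FOSB had 715 and 724 against 468 and 490.3, a ratio of 1.5. ATF3, a repressor induced by stress, had 1572 and 1634 against 1032 and 1123, a ratio of 1.49. All 3 stood far below arsenite-treated knockout cells, which had 6575 and 6546 FOS reads, 7889 and 8934 FOSB reads and 16003 and 16811 ATF3 reads. PPP1R15A encodes GADD34, which brings the phosphatase back to eIF2alpha after stress. It had 4407 and 4697 reads with wild type and 3245 and 3546 with the deletion form, a ratio of 1.34. MYC, a growth regulator, had 6550.5 and 6289.8 against 5138 and 5196, a ratio of 1.24, and MCL1, a short-lived survival factor, had 9828 and 9495 against 8151 and 7989, a ratio of 1.2. Without arsenite all 20 also had positive log2 differences on reads, where 48.5% of all genes had a higher mean with wild type. There 10 of the 20 were called (against 0.622% of all genes), among them ATF3 (0.50), FOSB (0.51) and KLF6 (0.40). Of the 134 genes of any kind called higher on reads with arsenite, 134 had a positive difference without it and 42 were called.

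NEAT1 and ANKRD1 completed the genes called higher. NEAT1 (ENSG00000245532), the nuclear noncoding RNA that scaffolds paraspeckles, had 8922 and 8892 normalised reads with wild type and 6487 and 6421 with the deletion form (log2 difference 0.49, SE 0.088, adjusted p = 6.9e-05). Knockout cells with arsenite had 11709 and 12319, above both treated rescues. Untreated knockout cells had 8650.0 and 7510.3, and the treated rescues lay on opposite sides of that mean. The authors' deposited tables give log2 fold changes over untreated knockout of 0.20 (SE 0.06) and -0.29 (SE 0.06), which include the effect of arsenite. Without arsenite NEAT1 had 5939.6 and 6013 against 4412 and 4774 reads (adjusted p = 0.00017, limma), both rescues below untreated knockout cells. MALAT1, another nuclear noncoding RNA, was called on reads at 20114 and 19852 against 16985 and 17182. ANKRD1 (ENSG00000148677), a well-known target of YAP and TEAD, had 11704 and 11562 against 9408 and 9376 reads (log2 difference 0.33, SE 0.077, adjusted p = 0.0183). It differed by nearly the same amount without arsenite, 0.29 on log2 (adjusted p = 0.000678, limma). Its call was lost when each table was centred on its median (adjusted p = 0.105).

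Most of the called genes leaned the same way before arsenite. Of the 134 genes called higher on reads with arsenite, 134 had a positive difference without it and 42 were called higher there. Of all genes, 48.5% had a higher untreated mean with wild type. Of the 44 called lower, 37 had a negative difference without it and 7 were called. Without arsenite the difference of the authors' fold changes called 3 of 16210 genes (0.0185%), G3BP1, G3BP1P1 and RHPN2P1, all lower with wild type. RHPN2P1 was again lost on reads (adjusted p = 0.636, limma), with 0 and 1.12 normalised reads against 7.09 and 0, values that overlapped. Limma on reads called 163 without arsenite (0.985%), 103 higher (0.622%) and 60 lower (0.362%). The difference of the 2 arsenite responses was tested directly with tables that share no library. It called 52 of 15865 genes (0.328%), 16 with the larger response in wild type (0.101%) and 36 with the smaller (0.227%). These tables had been shrunk by unlike amounts, with widths of the prior estimated from the deposited values at 0.297 and 0.159 on the log2 scale. With the shrinkage undone 61 were called, of which 23 were among the 52. On reads limma called 3 genes (0.0181%), HSPA1A with the larger response in wild type (0.00604%) and RN7SL1 and SPP1 with the smaller (0.0121%).

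**Figure D3:**
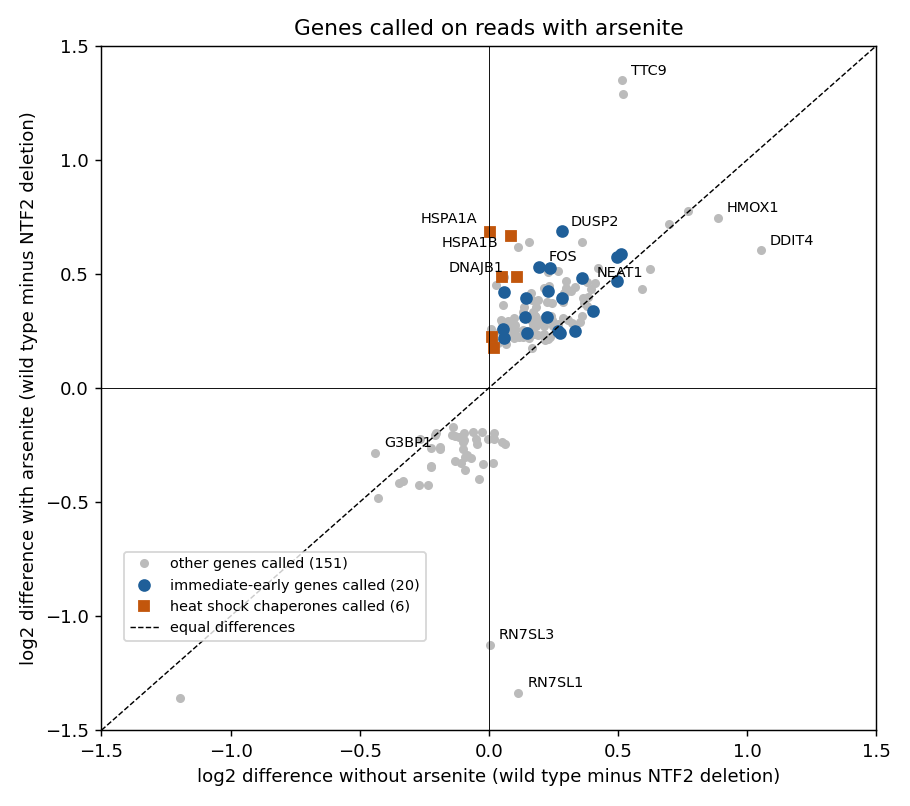
Log2 difference between the rescues on reads without arsenite (x axis) and with arsenite (y axis) for the genes called on reads with arsenite, G3BP1P1 left out for scale. The genes called higher all lie right of 0 on the x axis, the heat shock chaperones (squares) between 0.0062 and 0.11 and so well above the line of equal differences. HMOX1 and DDIT4 are among the genes below that line.

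HSPA1A had the larger response with wild-type G3BP1. Arsenite multiplied its mean by 10.4 in the wild-type rescue, by 6.53 in the NTF2-deletion rescue and by 22.6 in knockout cells, and the responses of the rescues differed by 0.68 on log2 (adjusted p = 0.0047, limma on reads). HSPA1B had multiples of 12.2 and 8.16, and the difference of 0.58 missed the threshold (adjusted p = 0.052, limma). For DNAJB1 the multiples were 4.52 and 3.48, and the difference of 0.38 did not pass (adjusted p = 0.161, limma).

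RN7SL1 and RN7SL3, 2 near-identical genes of the 7SL RNA of the signal recognition particle, were picked out after their values were seen. RN7SL1 had 1802 and 1844 normalised reads with wild type and arsenite and 4458 and 4747 with the deletion form and arsenite. The untreated rescues had 4249.9 and 4265 with wild type and 4039.5 and 3827 with the deletion form, so the arsenite-treated wild-type libraries stood apart from the other 6 rescue libraries. The log2 difference with arsenite was -1.34 (SE 0.14, adjusted p = 1.7e-06, limma), and the responses differed by -1.45 (adjusted p = 0.00114, limma). RN7SL3 had 210.5 and 239 against 451 and 532 reads (adjusted p = 8.82e-05, limma). By the authors' fold changes neither passed, with differences of -1.18 (SE 0.57) and -0.99 (SE 0.47), and the untreated knockout libraries of RN7SL1 lay apart at 4166 and 7915. The RNA is made without a poly-A tail and the libraries were selected for one, and how much of it each selection carried over was not tested. SPP1, the matrix protein osteopontin, had 551 and 617 untreated and 336 and 351 treated reads with wild type, and 425 and 375.4 untreated and 394 and 385 treated reads with the deletion form. Its responses differed by -0.72 (adjusted p = 0.0271, limma), while its difference with arsenite did not pass (-0.18, adjusted p = 0.411, limma).

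Smaller groups of called genes lay in other lists. Of 19 NF-kappaB targets and cytokines, 3 were called higher on reads (15.8%, against 0.81% of all genes), BIRC3 at 2669.6 and 2546 against 1992 and 1958 reads, TRAF1 at 1695 and 1757 against 1280.1 and 1256 and TNFAIP3 at 782 and 853 against 621 and 621. The 3 genes encode an inhibitor of cell death, a signalling adaptor and a feedback enzyme of the pathway, and each was also called on reads without arsenite. Of 30 ATF4 targets, genes of the integrated stress response, 2 were called higher on reads (6.67%, against 0.81%). SESN2, a nutrient sensor, had 804 and 731 against 554 and 515 reads. DDIT4, an mTORC1 inhibitor, had 273 and 284 against 170.1 and 197, with a larger difference of 1.05 on log2 without arsenite. Among 40 transcripts of stress granule proteins, the subunit EIF3A was called higher on reads (2.5%, against 0.81%), at 15134 and 16311 against 13439 and 14061. Of the 40, 12 had both wild-type libraries above (30%, against 25.5% of all genes) and 13 both below (32.5%, against 24.3%). Of 32 translation factors EIF5B and EIF4A2 were called higher on reads (6.25%, against 0.81%), at 0.30 and 0.27 on log2. The translation factors as a list lay the other way, with a median log2 difference on reads of -0.045. Both wild-type libraries lay below in 16 of 32 (50%, against 24.3%) and above in 7 (21.9%, against 25.5%). The fit of the 4 treated rescue libraries called 3 of the 32 higher (9.38%, against 4.41% of all genes) and 6 lower (3.36% of all genes were).

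Among genes lower with wild type a few came from the lists of ribosomal proteins, of replication and mitosis, of matrix and of histones. Of 79 cytosolic ribosomal protein genes, 70 had both wild-type libraries below both deletion libraries (88.6%, against 24.3% of all genes), and their median log2 difference was -0.092. Only RPL12 and RPL32 were called lower on reads (2.53%, against 0.266% of all genes), while the fit of the 4 treated rescue libraries alone called 47 lower (3.36% of all genes were). RPL12 had 3838 and 3680.0 against 4456 and 4394 reads, and RPL32 3548 and 3443 against 4009 and 4181. Of 34 replication and mitosis genes, RRM2, a subunit of ribonucleotide reductase, and MKI67, the proliferation marker Ki-67, were called lower on reads (5.88%, against 0.266%), and 26 of the 34 had both wild-type libraries below (76.5%, against 24.3%). RRM2 had 3454 and 3518 against 4077 and 4060.5 reads and MKI67 11904 and 12313 against 13310.3 and 13947, ratios of 0.857 and 0.888. Of 29 matrix and protease genes, SPARC and COL12A1 were called lower on reads (6.9%, against 0.266%), with ratios of 0.875 and 0.867. Both wild-type libraries lay below in 18 of the 29 (62.1%, against 24.3%) and above in 6 (20.7%, against 25.5%). Of 14 histone genes H2BC12 was called lower on reads (7.14%, against 0.266%), with a ratio of 0.836. Without arsenite the wild-type mean was higher in 3 of the 79 ribosomal protein genes (3.8%) and 2 of the 34 replication and mitosis genes (5.88%). It was higher in 17 of the 29 matrix and protease genes (58.6%) and 4 of the 14 histone genes (28.6%), against 48.5% of all genes. The ribosomal and the replication and mitosis lists thus leaned the same way without arsenite. SPARC is also an osteoblast lineage marker, and the summed markers of that list were lower with wild type, at 28756 and 28887 against 31388 and 31495 reads. VIM alone held 18901 and 18931 against 20666 and 20364 of these. The list did not move as a whole. COL1A1 overlapped, at 3211 and 3413 against 3299 and 3455, and COL1A2 was higher with wild type, at 11.8 and 10.6 against 6.80 and 5.87. The part of these markers in the other results was not tested.

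**Figure D4:**
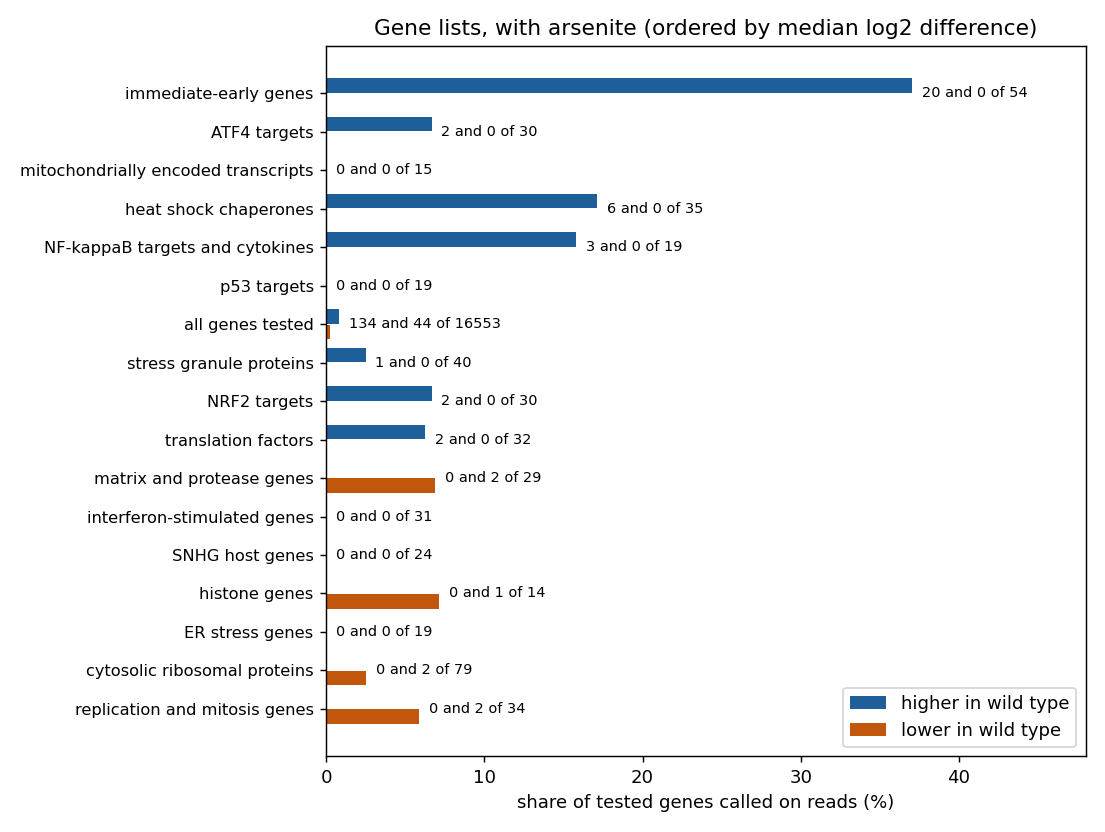
Share of tested genes called on reads with arsenite (x axis, percent) in each list of at least 10 tested genes, higher (blue) or lower (orange) with wild type, with the counts beside the bars. Immediate-early genes reach 37%, heat shock chaperones 17.1% and NF-kappaB targets 15.8%, against 0.81% of all genes.

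Of the 178 genes called on reads, 133 were in no list, and those named here were picked after their values were seen. ZFAND2A, an arsenite-inducible partner of the proteasome, had 1035 and 1060.4 normalised reads with wild type and 726 and 807 with the deletion form, a ratio of 1.37, after 351 and 381 and 378 and 340.1 without arsenite. CLK1, a kinase of splicing factors, had 1279 and 1282 against 869.9 and 923, a ratio of 1.43. PER2, a repressor of the circadian clock, had 285 and 264 against 169 and 188, a ratio of 1.54. The groups did not overlap for any of the 3, and their adjusted p by limma were 0.0213, 1.48e-05 and 0.00594. LATS2, the Hippo pathway kinase that restrains YAP, had 1599 and 1531 against 1202 and 1209 reads, with a log2 difference of 0.38 and of 0.29 without arsenite. CITED2, a coactivator-binding protein, had 831 and 783 against 589 and 583 (log2 0.46, and 0.41 without arsenite). TTC9 had the largest log2 difference of the genes called higher, 1.35, from few reads, 23.6 and 29.3 against 8.75 and 10.8.

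On the lower side, EYA2, a transcriptional coactivator and phosphatase, had 15.7 and 8.97 normalised reads with wild type and 35 and 29.4 with the deletion form. CDKN2C, the cell cycle inhibitor p18, had 148 and 165 against 219.7 and 217, a ratio of 0.717, and both rescues stood far below the 920.0 and 1043 of knockout cells. SKP2, a ubiquitin ligase subunit that marks cell cycle inhibitors, had 1193 and 1108 against 1457 and 1412, a ratio of 0.802. ASPM, a spindle pole protein, had 1471 and 1437 against 1803 and 1763, a ratio of 0.816. The adjusted p of the 4 genes by limma were 0.0346, 0.0181, 0.00377 and 0.0052. HMGA2 and LRP1, a chromatin protein and an endocytic receptor, had ratios of 0.832 and 0.857.

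Apart from the lists of cell type markers, 6 lists had no gene called by the authors' fold changes or on reads over 6 groups. These were 6 metallothioneins, 19 ER stress genes, 31 interferon-stimulated genes, 19 p53 targets, 24 small nucleolar RNA host genes and 15 mitochondrially encoded transcripts. By limma on reads their counts at an unadjusted p under 0.05 were 1, 5, 7, 3, 2 and 5, where 13% of all genes had one, and the authors' fold changes gave 1, a mitochondrial transcript, over all 6 lists. The fit of the 4 treated rescue libraries called 7 of the 15 mitochondrial transcripts higher and 2 lower, 2 of the 6 metallothioneins higher and 4 of the 19 ER stress genes lower (against 4.41% of all genes higher and 3.36% lower). It also called 1 interferon-stimulated gene higher and 2 lower, 1 p53 target lower and 2 small nucleolar RNA host genes lower. Both wild-type libraries lay below both deletion libraries for 11 ER stress genes (57.9%) and 14 small nucleolar RNA host genes (58.3%), against 24.3% of all genes. Metallothioneins, small metal-binding proteins, were abundant in both rescues, MT1X at 2846 and 2848 against 2646 and 2536 reads and MT1G at 1389 and 1295 against 1303 and 1199.8. In the knockout, arsenite multiplied MT1X by 112, and in the rescues by 48.3 and 53.2. CALR and CANX, lectin chaperones of the ER, had ratios of 0.924 and 0.922 and did not pass (adjusted p = 0.198 and 0.208, limma). Interferon-stimulated IFI6 had -0.58 on log2 and IFIT5 0.33, neither called.

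The genes that differed were set beside the authors' deposited table of G3BP1 immunoprecipitation against input, which comes from another line, FlpIn 293 Trex cells that express FLAG-G3BP1. Of the genes called higher on reads, 132 had a value there and a median log2 enrichment of -0.84. The 44 called lower had a median of 0.37, and the 15863 tested genes with a value -0.15. The called chaperones and immediate-early genes spread on both sides of 0 in the authors' deposited table, with DNAJB1 at 0.80, HSPA1A at -0.93, HSPA1B at -1.46, JUN at -0.83 and ATF3 at 0.98. NEAT1 stood at -2.35 and HMOX1 at 0.53 in that table. These values describe other cells without arsenite and were not tested against the difference between the rescues.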

How the data were processed

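Poly-A RNA was sequenced from U2OS libraries. The submitters' processing notes name STAR 1.5.3 and DESeq2 2.11.40.6. The build and annotation are not given in the sources used here. The authors deposited tables of comparisons per gene, each with a base mean (a signal in normalised reads), a log2 fold change shrunk toward 0, its standard error, a Wald score, a p-value and an adjusted p-value. Rows of the counting summary were removed. The fold changes are the authors', group named first over group named second.

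For each gene the 2 log2 fold changes were subtracted. The difference over its error (root of both squared standard errors added) was read as a normal deviate, with two-sided p-values and Benjamini-Hochberg adjustment over the 16553 genes with base means of at least 10 in both tables. Calls are at an adjusted p under 0.05. From the base means of 7 tables, exact to 15 digits, the whole reads of all 61541 genes in 12 libraries were solved. All base means were returned, with a largest deviation of 0.744 units of the last digit, and any other solution would differ by at least 11589934 reads. The reads carry no replicate numbers, and libraries are ordered by depth. The median squared difference between the 2 libraries of a group was 1.63 to 2.54 times what sampling of reads gives, so no pair agreed within sampling noise. Median-of-ratios scaling, a pseudocount of 1 and limma 3.58.1 (R 4.3.3) with a trended spread over 6 groups gave the second test. Count models were not run on the recovered reads.

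Named genes were G3BP1, G3BP2, called genes (up to 12 each way) and up to 4 of each of 23 lists by difference over error, and exceptions are stated. The members and lists were chosen with earlier results of these data known. Alternatives are in the closing section. Symbols were found for 15099 of the tested genes. Promoter sequences are RefSeq's (GRCh38.p14).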

Additional observations from a re-analysis of the deposited data

Results flagged for a closer look

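The difference between the rescues with arsenite was compared with that without it, and for 9 of the named genes the authors' fold changes gave a difference of arsenite responses that passed. It was 0.66 (SE 0.10) for HSPA1A, 0.66 (SE 0.085) for HSPA1B, 0.40 (SE 0.065) for DNAJB1, 0.51 (SE 0.11) for DUSP2, 0.26 (SE 0.058) for JUN and 0.19 (SE 0.048) for HSP90AA1, each larger with wild type. For CALR it was -0.20 (SE 0.047) and for CANX -0.21 (SE 0.052), both smaller with wild type. The adjusted p of these 8 genes ran from 1.94e-11 to 0.0298, by the normal test of the authors' fold changes. These responses had been shrunk toward 0 by unlike amounts, with prior widths of 0.297 for wild type and 0.159 for the deletion form. Stronger shrinkage of the deletion form makes rising genes look larger with wild type and falling genes smaller. These p-values therefore do not test equal responses, and the part of the shrinkage was not tested. On reads the same differences were 0.68 for HSPA1A, 0.58 for HSPA1B, 0.38 for DNAJB1, 0.40 for DUSP2, 0.25 for JUN, 0.21 for HSP90AA1, -0.18 for CALR and -0.18 for CANX. Of these HSPA1A alone passed on reads (adjusted p = 0.0047, limma), and the others had adjusted p from 0.052 to 0.568.

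MT1G had the largest of these values, 2.35 (SE 0.18), by the authors' fold changes and only 0.20 on reads (adjusted p = 0.954, limma). Its reads were 1389 and 1295 with wild type and arsenite, 1303 and 1199.8 with the deletion form and arsenite, and 57.6 and 48.1 and 73.9 and 42.8 without.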

How the results depend on the processing

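The count of 13 genes called stayed at 12 or 13 with the shrinkage undone, with centring, with a base mean of at least 100 and with no minimum. It was 75 with the error shared through the knockout removed, 4 with a log2 difference of at least 1, 178 on reads over 6 groups, 1286 on the 4 treated rescue libraries, 197 with a pseudocount of 5 and 199 with those libraries thinned to 1 depth, an alternative chosen after seeing the data. Leaving out 1 library gave 31 to 47. In each of these 4 fits the arm with 1 library is assumed to vary like the other groups. The 52 differing arsenite responses became 3 on reads. The 3 untreated calls became 28 without the shared error, 1 with a base mean of at least 100 and 163 on reads.

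With a log2 difference of at least 1 required, the 8 genes called higher and G3BP1 lost their calls, and the other 4 lower genes kept theirs. The other 11 alternatives that change a gene's difference or error are the removed shared error, the undone shrinkage, centring, the 4 fits on reads and the 4 left-out libraries. G3BP1 kept its direction and call in these 11, from -0.30 to -0.26, and leaving out 1 library gave -0.30 to -0.27. HMOX1, DUSP2, HSPA1A, HSPA1B, DNAJB1, NEAT1, JUN and G3BP1P1 kept theirs too, and ANKRD1 in all but centring. CNTNAP2, SMANTIS and RHPN2P1 kept theirs in 3 each. Signs turned for genes near 0 or with few reads, and the cause was not tested. CNTNAP2 was 0.41 on reads of 6 groups, 0.50 on 4 libraries and 0.43 thinned. With 1 library left out it ran from -1.31 to 2.12, SMANTIS from -2.06 to 0.71, RHPN2P1 from -1.76 to 1.21, PAX8 from -0.56 to 0.34, PAX2 from -0.92 to 0.47, CLDN4 from -0.0082 to 0.050 and G3BP2 from -0.018 to 0.019. G3BP2 was also -0.0070 centred and on reads -0.0012 with 6 groups, -0.0019 with 4 libraries, -0.0012 with a pseudocount of 5 and -0.0018 thinned.

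No paired analysis was possible because the columns carry no replicate numbers and the recovered reads cannot be tied to them. The median standard error of the difference of the authors' fold changes was 0.68 on log2 for genes whose smaller base mean was 10 to 100, 0.18 for those of at least 100 and 0.11 for those of at least 1000.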
